A study of Mus musculus with 19 samples.

Results

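The genes described here are 35 genes known as targets or parts of the hypoxia response. They were chosen by symbol from a list, among 46983 genes counted in 19 tumours. All 35 symbols were in the count table and all 35 were among the 16763 genes with enough counts to be tested. The tumours arose from 1000000 implanted cells of 4T1, a mammary carcinoma line of the mouse, in syngeneic BALB/cAnN hosts. The series compares tumours deficient in lactate dehydrogenase A (LDHA), the enzyme that turns pyruvate into lactate, with control tumours, under antibody against CTLA-4, a brake on T cell activation, or under control IgG. Tumours of the knockdown line 4T1-KD (LDHA-KD) received anti-CTLA-4 (n = 5) or IgG (n = 5), and tumours of the control line 4T1-Sc received anti-CTLA-4 (n = 5) or IgG (n = 4, replicates 1, 3, 4 and 5). Antibody was given 3 times, 3 days apart, from day 3 after implantation. The labels name 1 knockdown line and 1 control line, so the knockdown cannot be told apart from other differences between these lines. No age or sex of the mice is given, and separate animals are not stated for the replicates, so a p-value here reflects only how these samples vary.

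Cells short of oxygen stabilise hypoxia-inducible factor (HIF), a transcription factor made of an oxygen-regulated alpha subunit and a constant partner encoded by Arnt. Prolyl hydroxylases of the Egln family mark the alpha subunit for destruction when oxygen is present, by way of the VHL ubiquitin ligase. The factor binds hypoxia response elements and switches on genes for glycolysis, vessel growth, acid export, mitophagy and collagen cross-linking, and Ldha itself is a classic target. Solid tumours such as 4T1 carcinomas hold poorly perfused regions in which many of these genes are known to be high.

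The total of gene counts lay between 31.8 and 43.3 (in units of 1000000) for each library, and values are counts per 1000000 (CPM) scaled by TMM factors, which correct library totals for composition. Ldha stood at 566, 485, 584, 525 and 545 CPM in anti-CTLA-4 and 478, 469.9, 452, 506 and 519 CPM in IgG tumours of the LDHA-KD line, against 2244, 1524, 1955, 1910.3 and 1935 CPM in anti-CTLA-4 and 1926, 1624, 1567 and 1283 CPM in IgG tumours of the control line. Its level matched the label in all 19 libraries. The first principal component of all genes held 41.8% of the variance and separated the lines. The second held 16.98%, and on it 4 libraries stood apart, namely anti-CTLA-4 replicates 3 and 5 of the LDHA-KD and of the control tumours. Epithelial tumour markers were detected in every library. These are whole tumours, so fewer cells of a type and less RNA per cell cannot be told apart.

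The RefSeq promoter table of build GRCm38.p6 held windows, from 250 bases before to 50 bases after a transcript start, for 25 of the 35 genes. The core of the hypoxia response element was searched as ACGTG or GCGTG on both strands. It was present in 21 of the 25 genes (84.0%), against 12628 of 27025 genes (46.7%) in the whole table. A gene counted if any of its windows matched, and the table was not limited to genes tested here. Per window, the core was in 26 of the members' 35 windows (74.3%), against 14380 of 32851 (43.8%). The members' windows were richer in G and C, with a median of 64.3%, against 52.7% over all windows, and the part of base composition in the difference was not tested. The 6 promoters below were chosen after their values were seen, to show 3 genes that were lower in LDHA-KD tumours by over 1 log2 unit under IgG (Adm, Ddit4, P4ha2), 2 targets that did not pass the test (Car9, Egln3) and the 1 gene that was higher (Arnt). They run 5′ to 3′ on the gene's own strand, and capitals mark each core match on either strand.
Adm promoter, chr7:110627407-110627706, plus strand: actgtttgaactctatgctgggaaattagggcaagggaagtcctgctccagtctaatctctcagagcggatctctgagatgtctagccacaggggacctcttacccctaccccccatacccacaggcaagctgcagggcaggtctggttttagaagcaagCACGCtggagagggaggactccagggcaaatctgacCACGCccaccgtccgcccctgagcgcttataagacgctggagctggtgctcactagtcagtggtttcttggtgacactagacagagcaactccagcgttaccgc
Ddit4 promoter, chr10:59951721-59952020, minus strand: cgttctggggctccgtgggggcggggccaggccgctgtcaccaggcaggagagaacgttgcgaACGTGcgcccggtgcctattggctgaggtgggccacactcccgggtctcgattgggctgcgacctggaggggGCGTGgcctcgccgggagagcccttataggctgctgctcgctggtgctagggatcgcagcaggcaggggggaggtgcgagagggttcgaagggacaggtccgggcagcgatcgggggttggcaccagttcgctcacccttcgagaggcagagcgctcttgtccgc
P4ha2 promoter, chr11:54100674-54100973, plus strand: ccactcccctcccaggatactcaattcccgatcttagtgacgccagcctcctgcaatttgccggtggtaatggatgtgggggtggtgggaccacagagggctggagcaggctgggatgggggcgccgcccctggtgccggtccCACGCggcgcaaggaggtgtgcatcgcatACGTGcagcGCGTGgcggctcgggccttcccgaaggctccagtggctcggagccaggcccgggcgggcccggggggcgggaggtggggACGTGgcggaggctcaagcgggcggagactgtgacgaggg
Car9 promoter, chr4:43506776-43507075, plus strand: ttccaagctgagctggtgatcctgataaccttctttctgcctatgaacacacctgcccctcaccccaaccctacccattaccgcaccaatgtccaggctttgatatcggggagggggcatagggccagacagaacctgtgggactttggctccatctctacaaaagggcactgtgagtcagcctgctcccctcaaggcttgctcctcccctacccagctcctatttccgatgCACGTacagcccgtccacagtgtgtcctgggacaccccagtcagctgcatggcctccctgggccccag
Egln3 promoter, chr12:54203825-54204124, minus strand: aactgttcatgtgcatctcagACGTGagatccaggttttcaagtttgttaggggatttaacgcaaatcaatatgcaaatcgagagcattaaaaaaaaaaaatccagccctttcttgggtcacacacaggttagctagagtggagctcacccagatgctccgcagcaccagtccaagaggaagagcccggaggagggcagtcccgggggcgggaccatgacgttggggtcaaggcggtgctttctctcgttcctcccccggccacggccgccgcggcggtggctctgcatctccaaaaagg
Arnt promoter, chr3:95434140-95434439, plus strand: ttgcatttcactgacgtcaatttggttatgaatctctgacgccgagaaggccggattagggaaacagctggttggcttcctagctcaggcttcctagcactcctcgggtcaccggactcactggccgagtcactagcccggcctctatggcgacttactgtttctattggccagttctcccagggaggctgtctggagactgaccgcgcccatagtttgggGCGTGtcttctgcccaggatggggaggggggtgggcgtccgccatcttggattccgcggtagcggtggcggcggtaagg
The Adm window carries its matches 90 and 54 bases upstream of the start. Ddit4 has a match at 187 and another at 115 bases upstream, and P4ha2 has 4, of which 1 lies 10 bases downstream. The match of Car9 lies 18 bases upstream, that of Egln3 229 bases upstream and that of Arnt 29 bases upstream. A core match thus occurred in genes that were lower, in genes that did not pass and in the gene that was higher. Of the 17 genes lower under both antibodies, 12 had a window and 10 of these a core match, and of the 10 genes that passed under neither, 8 had a window and 7 a core match. A match is a string of letters and no evidence of binding.

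Across the list, most hypoxia genes were lower in LDHA-KD than in control tumours. None of the 4 oxygen sensing genes passed as lower, but 4 genes are too few to set against the shares of all genes below. The same limit holds for every role group described further on, since each has only 2 to 6 genes. Under IgG, 23 of the 35 genes were lower and 1 was higher, where 17.5% of all genes tested were lower and 16.8% higher, 34.3% in all (edgeR's quasi-likelihood test, Benjamini-Hochberg adjusted over 16763 genes, threshold 0.05). Under anti-CTLA-4, 18 were lower and 1 was higher, where 19.8% of all genes were lower and 20.2% higher, 40% in all. The median log2 fold change of the 35 genes was -0.48 under IgG and -0.46 under anti-CTLA-4, against medians of -0.0016 and 0.0059 over all genes tested. The genes lower under both antibodies were 17, and Arnt was higher under both. The libraries of the lines did not overlap in 14 of the 35 genes under IgG and in 9 under anti-CTLA-4. Such separation in either direction was seen in 30.4% and 23.2% of all genes tested.

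**Figure D1:**
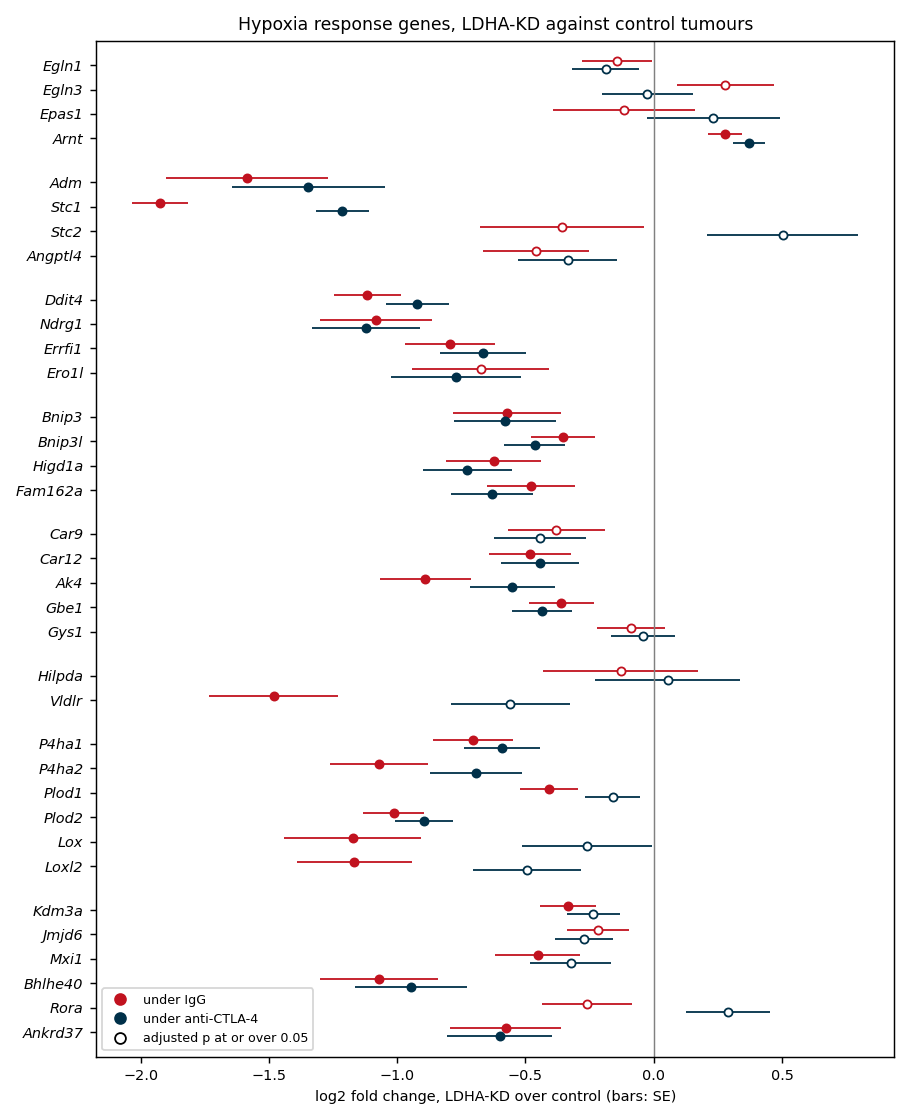
Log2 fold changes of the 35 genes, LDHA-KD against control tumours, under anti-CTLA-4 and under IgG, with bars of 1 SE, grouped by role; filled points passed an adjusted p of 0.05. Under IgG 33 of the 35 values lie below 0, and Stc1 is the lowest of them at -1.92.

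The number of genes past the threshold varied with scaling and with single libraries of both lines. Without TMM scaling the share of all calls that were higher was 60.5% under IgG and 65.2% under anti-CTLA-4, against 48.9% and 50.5% with it. The median of all genes moved to 0.071 and 0.10 log2 units. Without that scaling 16 and 17 of the hypoxia genes were lower, where 2251 and 2369 of the 16763 genes tested were lower. Without control IgG replicate 1, 15 of the 35 genes were lower under IgG, with a median of -0.35, where 14.2% of all genes were lower. The 8 genes no longer past the threshold were Bnip3, Bnip3l, Higd1a, Fam162a, Gbe1, Kdm3a, Mxi1 and Ankrd37, and all of these but Mxi1 passed under anti-CTLA-4 with that library left out of the fit. Without control IgG replicate 5 the number under IgG was 26, and it was 17 without LDHA-KD IgG replicate 1, 2 or 5, where 15.8% and 14.8% to 15.4% of all genes were lower. Under anti-CTLA-4 it was 24 without LDHA-KD replicate 3 and 14 without control replicate 1, where 17.7% and 17.6% of all genes were lower. Without LDHA-KD anti-CTLA-4 replicate 1, 3 genes were higher under anti-CTLA-4, with Rora at 0.42 (adjusted p = 0.0243) and Stc2 at 0.69 (adjusted p = 0.0409) beside Arnt in edgeR's test. Without control anti-CTLA-4 replicate 5, 2 were higher, Arnt and Stc2. Calls under IgG that leaving out any 1 library removed were those 8 and Car12, and under anti-CTLA-4 they were Ankrd37, Bnip3, Car12 and Ero1l, each of which was lost without control anti-CTLA-4 replicate 1 with an adjusted p of 0.0672 to 0.0934.

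Among the oxygen sensing genes, only Arnt passed the test between the lines, and it was higher in LDHA-KD tumours. Arnt (chr3:95434388-95497240), the constant HIF partner, had 105, 109, 112, 114 and 104 CPM in the IgG-treated LDHA-KD tumours, against 91.5, 91.2, 91.1 and 85.1 CPM in the IgG-treated controls. In the anti-CTLA-4 arm Arnt had 101, 125, 118, 108 and 117 CPM in LDHA-KD tumours, against 86.3, 89.5, 79.03, 93.2 and 91.97 CPM in controls. The groups did not overlap under either antibody, and the log2 fold changes were 0.28 (SE 0.067 and adjusted p = 0.00307) under IgG and 0.37 (SE 0.063 and adjusted p = 1.36e-04) under anti-CTLA-4 in edgeR's test. Egln1 (chr8:124908587-124949324), the main prolyl hydroxylase that marks HIF alpha, had 96.9, 94.3, 104, 102 and 106 CPM in the IgG-treated LDHA-KD tumours, against 133, 116, 112 and 83.1 CPM in the IgG-treated controls. Tumours given anti-CTLA-4 held 119, 109, 145, 119 and 151 CPM with the knockdown, against 188, 112, 157, 132 and 144 CPM without it. These groups overlapped, at -0.14 (95% interval -0.44 to 0.15, adjusted p = 0.455) log2 units under IgG and -0.19 (95% interval -0.47 to 0.090, adjusted p = 0.262) under anti-CTLA-4 in edgeR's test.

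Egln3 (chr12:54178981-54203860), a prolyl hydroxylase that is itself strongly induced by HIF, had 272, 213, 246, 314 and 279 CPM in the IgG-treated LDHA-KD tumours, against 307, 244, 184 and 138 CPM in the IgG-treated controls. Under anti-CTLA-4 the values were 316, 329.6, 274, 259 and 275 CPM in LDHA-KD tumours, against 387, 208, 315, 297 and 275 CPM in controls. The LDHA-KD libraries lay inside or above the range of the IgG control libraries, and the edgeR log2 fold changes were 0.28 (95% interval -0.12 to 0.68, adjusted p = 0.272) under IgG and -0.025 (95% interval -0.40 to 0.35, adjusted p = 0.924) under anti-CTLA-4. Without scaling the anti-CTLA-4 value of Egln3 was 0.077. Epas1 (chr17:86753700-86833410), an oxygen-regulated alpha subunit that is abundant in endothelium, had 35.6, 32.4, 56.4, 35.7 and 41.8 CPM in the IgG-treated LDHA-KD tumours, against 31.5, 51.01, 58.7 and 33.8 CPM in the IgG-treated controls. In the anti-CTLA-4 arm Epas1 had 38.2, 41.1, 113, 59.8 and 91.7 CPM in LDHA-KD tumours, against 60.4, 52.4, 69.5, 45.3 and 65.6 CPM in controls. The LDHA-KD anti-CTLA-4 libraries 3 and 5 were the highest of all 19, and the log2 fold changes in edgeR were -0.12 (95% interval -0.71 to 0.47, adjusted p = 0.781) under IgG and 0.23 (95% interval -0.32 to 0.78, adjusted p = 0.501) under anti-CTLA-4. Without the 4 libraries apart on the second component the anti-CTLA-4 value of Epas1 was -0.18.

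The secreted factors split into a pair that was much lower and a pair that did not pass. Stc1 (chr14:69029238-69041804), which encodes stanniocalcin, a secreted regulator of calcium and phosphate handling, had 16.97, 17.1, 16.6, 17.96 and 16.8 CPM in the IgG-treated LDHA-KD tumours, against 67.1, 62.1, 57.7 and 72.5 CPM in the IgG-treated controls. Tumours given anti-CTLA-4 held 19.02, 18.8, 26.8, 22.1 and 24.2 CPM with the knockdown, against 48.6, 58.1, 42.3, 57.8 and 50.4 CPM without it. Every LDHA-KD library lay below every control library, and the log2 fold change was -1.92 (SE 0.11 and adjusted p = 4.80e-10) under IgG and -1.21 (SE 0.10 and adjusted p = 5.05e-08) under anti-CTLA-4 in edgeR's test, the lowest p of the list in both. Adm (chr7:110627661-110629820), the vasodilator peptide adrenomedullin, had 23.4, 16.3, 24.2, 24.05 and 28.3 CPM in the IgG-treated LDHA-KD tumours, against 105, 87.3, 57.2 and 29.2 CPM in the IgG-treated controls. Under anti-CTLA-4 the values were 27.2, 32.3, 58.2, 28.9 and 55.4 CPM in LDHA-KD tumours, against 153, 63.8, 110.1, 87.3 and 99.6 CPM in controls. These groups did not overlap either, although control IgG replicate 5 came within 1 CPM of the highest LDHA-KD library, and the edgeR log2 fold changes were -1.59 (SE 0.32 and adjusted p = 7.09e-04) and -1.35 (SE 0.30 and adjusted p = 0.00152). Stc2, the second stanniocalcin, stood at -0.36 (95% interval -1.04 to 0.33, adjusted p = 0.419) under IgG and 0.50 (95% interval -0.12 to 1.13, adjusted p = 0.181) under anti-CTLA-4 in edgeR's test. Angptl4, a secreted inhibitor of lipoprotein lipase, stood at -0.46 (95% interval -0.90 to -0.022, adjusted p = 0.0908) and -0.34 (95% interval -0.75 to 0.076, adjusted p = 0.175). Angptl4 passed under IgG at -0.60 without control IgG replicate 5 (adjusted p = 0.0334) or without LDHA-KD IgG replicate 3 (adjusted p = 0.0312).

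All 4 genes of growth and stress signalling were lower under anti-CTLA-4 and 3 of them under IgG. Ddit4 (chr10:59949669-59951834), a stress-induced inhibitor of mTOR signalling, had 90.4, 94.996, 92.6, 131 and 115 CPM in the IgG-treated LDHA-KD tumours, against 285, 226, 210.4 and 187 CPM in the IgG-treated controls. In the anti-CTLA-4 arm Ddit4 had 115, 117, 122, 91.2 and 106 CPM in LDHA-KD tumours, against 238, 201, 226, 205 and 177 CPM in controls. No libraries of the lines overlapped, with edgeR log2 fold changes of -1.12 (SE 0.13 and adjusted p = 2.85e-06) under IgG and -0.92 (SE 0.12 and adjusted p = 1.30e-05) under anti-CTLA-4. Ndrg1 (chr15:66929318-66969640), a hypoxia-induced gene linked to differentiation and stress, had 689, 557, 635, 735 and 715 CPM in the IgG-treated LDHA-KD tumours, against 1959.7, 1551, 1330.1 and 801 CPM in the IgG-treated controls. Tumours given anti-CTLA-4 held 795, 941, 1163, 868 and 1161 CPM with the knockdown, against 3142, 1335, 1977, 2073 and 2198 CPM without it. Its control libraries spread widely, with IgG replicate 5 the lowest, and still lay above all LDHA-KD libraries of the same antibody, at -1.08 (SE 0.22 and adjusted p = 8.13e-04) and -1.12 (SE 0.21 and adjusted p = 3.45e-04) log2 units in edgeR. Errfi1, a feedback inhibitor of the EGF receptor, was lower at -0.79 (SE 0.18 and adjusted p = 0.00172) under IgG and -0.67 (SE 0.17 and adjusted p = 0.00374) under anti-CTLA-4. Ero1l, the oxidase that drives disulfide bond formation in the endoplasmic reticulum, fell short of the threshold under IgG at -0.67 (SE 0.27 and adjusted p = 0.0567) and was lower under anti-CTLA-4 at -0.77 (SE 0.25 and adjusted p = 0.0212). Ero1l passed under IgG at -0.91 without control IgG replicate 5 (adjusted p = 0.00697) and at -0.67 without control anti-CTLA-4 replicate 2 (adjusted p = 0.0409).

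**Figure D2:**
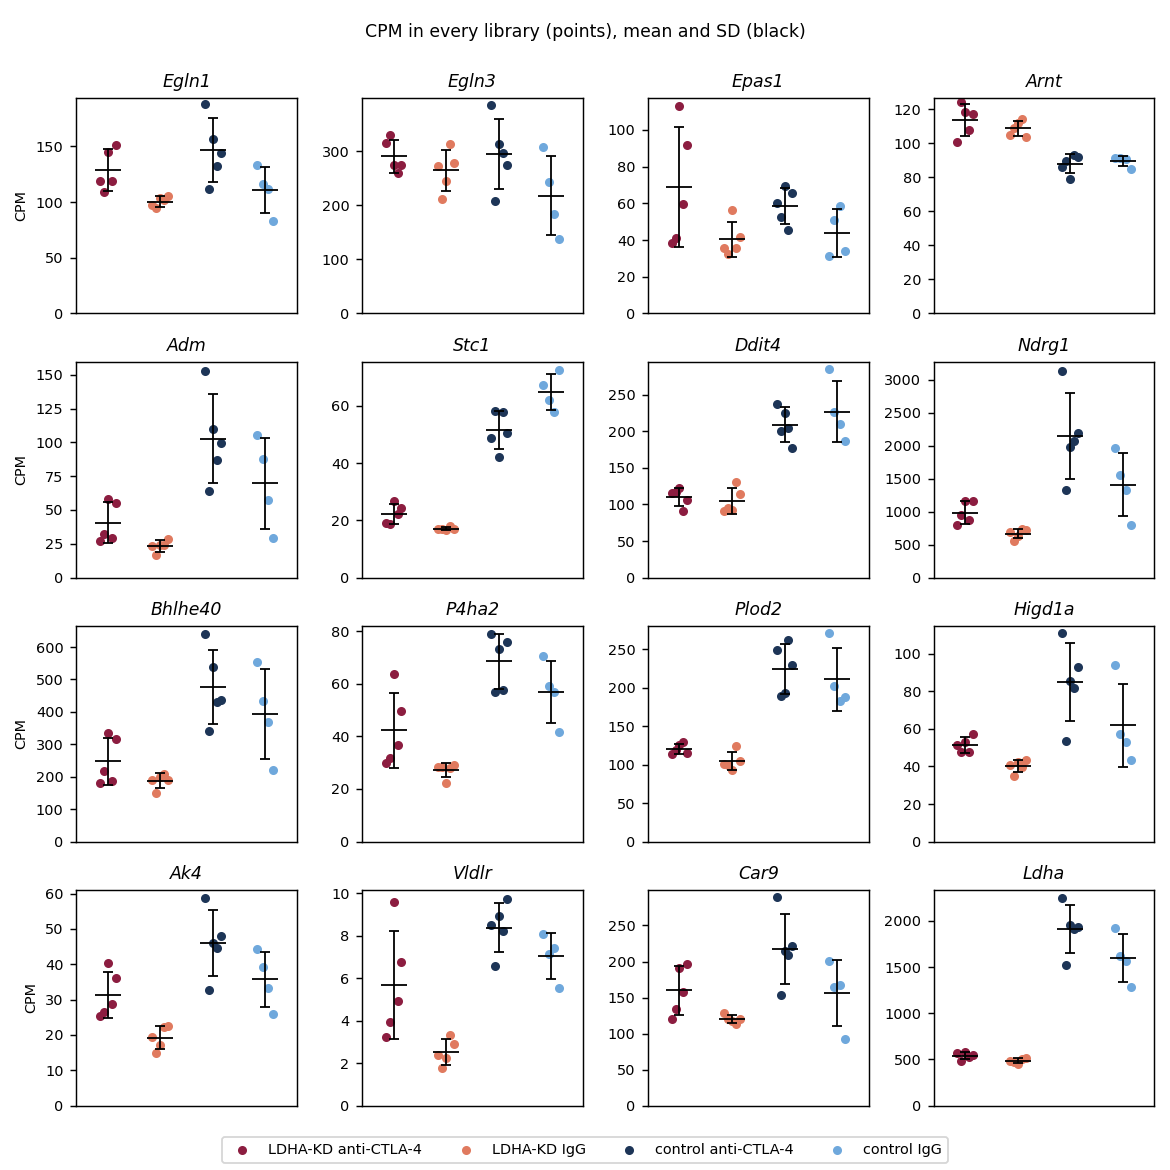
CPM of selected genes in every library of the 4 groups, 1 point per library on linear axes that start at 0, with the mean and SD of each group in black. Stc1 lies below 27 CPM in all LDHA-KD libraries and above 42 CPM in all control libraries, while the Egln1, Egln3 and Epas1 points of the lines overlap.

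The mitochondrial genes differed by less, and all 4 were lower under both antibodies. Higd1a (chr9:121848563-121858362), an inner-membrane protein that supports the respiratory chain in low oxygen, had 40.5, 35.02, 42.3, 39.5 and 43.7 CPM in the IgG-treated LDHA-KD tumours, against 93.9, 57.4, 52.9 and 43.5 CPM in the IgG-treated controls. Under anti-CTLA-4 the values were 51.5, 47.7, 52.98, 47.5 and 57.2 CPM in LDHA-KD tumours, against 111, 53.6, 85.8, 81.9 and 92.9 CPM in controls. Control IgG replicate 1 was far above the other control IgG libraries, replicate 5 of that group lay just under the highest LDHA-KD library, and the log2 fold changes were -0.62 (SE 0.18 and adjusted p = 0.0132) and -0.73 (SE 0.17 and adjusted p = 0.00279) in edgeR's test. Bnip3, a mitophagy receptor of the outer membrane, was lower at -0.57 (SE 0.21 and adjusted p = 0.0403) under IgG and -0.58 (SE 0.20 and adjusted p = 0.0256) under anti-CTLA-4. Its relative Bnip3l was lower at -0.35 (SE 0.13 and adjusted p = 0.0342) and -0.46 (SE 0.12 and adjusted p = 0.00423). Fam162a, a hypoxia-induced mitochondrial protein, was lower at -0.48 (SE 0.17 and adjusted p = 0.0352) and -0.63 (SE 0.16 and adjusted p = 0.00429). These are 4 of the calls under IgG that did not pass without control IgG replicate 1, and the IgG calls of Bnip3, Bnip3l and Fam162a were also lost without LDHA-KD IgG replicate 1 or 2, with adjusted p-values of 0.0522 to 0.0881.

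Of the 5 genes of acid, nucleotide and glycogen metabolism, 3 were lower under both antibodies. Ak4 (chr4:101419277-101466995), a mitochondrial adenylate kinase, had 19.4, 14.97, 17.3, 22.3 and 22.4 CPM in the IgG-treated LDHA-KD tumours, against 44.2, 39.2, 33.4 and 26.1 CPM in the IgG-treated controls. In the anti-CTLA-4 arm Ak4 had 25.5, 26.4, 40.2, 28.8 and 36.2 CPM in LDHA-KD tumours, against 58.8, 32.8, 46.1, 44.6 and 47.9 CPM in controls. The IgG groups did not overlap, the anti-CTLA-4 groups did through replicates 3 and 5 of the LDHA-KD tumours, and the edgeR log2 fold changes were -0.89 (SE 0.18 and adjusted p = 7.10e-04) and -0.55 (SE 0.17 and adjusted p = 0.0132). Car12, a membrane carbonic anhydrase, was lower at -0.48 (SE 0.16 and adjusted p = 0.0249) under IgG and -0.44 (SE 0.15 and adjusted p = 0.0254) under anti-CTLA-4. Gbe1, the glycogen branching enzyme, was lower at -0.36 (SE 0.12 and adjusted p = 0.0317) and -0.44 (SE 0.12 and adjusted p = 0.00647). Car9, the carbonic anhydrase most used as a hypoxia marker in tumours, did not pass, at -0.38 (95% interval -0.78 to 0.022, adjusted p = 0.128) under IgG and -0.44 (95% interval -0.82 to -0.064, adjusted p = 0.0542) under anti-CTLA-4. Car9 passed under IgG without control IgG replicate 5, at -0.56 (adjusted p = 0.0134), under anti-CTLA-4 in 5 of the fits without 1 library, at -0.44 to -0.55, and under anti-CTLA-4 without the 4 libraries apart on the second component, at -0.66 (adjusted p = 0.0448). Gys1, a glycogen synthase, stood at -0.090 (95% interval -0.37 to 0.19, adjusted p = 0.638) and -0.043 (95% interval -0.31 to 0.22, adjusted p = 0.809).

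The lipid genes were Vldlr, a lipoprotein receptor, and Hilpda, a lipid droplet protein that inhibits lipolysis. Vldlr (chr19:27216484-27254231) had 2.37, 1.79, 2.23, 3.33 and 2.91 CPM in the IgG-treated LDHA-KD tumours, against 8.097, 7.14, 7.44 and 5.53 CPM in the IgG-treated controls. Tumours given anti-CTLA-4 held 3.23, 3.92, 9.598, 4.93 and 6.74 CPM with the knockdown, against 8.49, 6.56, 8.8998, 8.21 and 9.74 CPM without it. Under IgG the groups did not overlap, at -1.48 (SE 0.25 and adjusted p = 1.66e-04) log2 units. Under anti-CTLA-4 LDHA-KD replicate 3 exceeded most control libraries, and the value was -0.56 (SE 0.23 and adjusted p = 0.0609) with all libraries and -0.83 (adjusted p = 0.0037) without that replicate in edgeR's test. With control anti-CTLA-4 replicate 2 left out instead, Vldlr was -0.64 (adjusted p = 0.0448). Hilpda stood at -0.13 (95% interval -0.77 to 0.52, adjusted p = 0.779) under IgG and 0.054 (95% interval -0.55 to 0.66, adjusted p = 0.895) under anti-CTLA-4, and at -0.42 without the 4 libraries apart on the second component.

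All 6 genes of collagen modification were lower under IgG and 3 of them also under anti-CTLA-4. P4ha2 (chr11:54100095-54131665), a catalytic subunit of collagen prolyl hydroxylase, had 28.2, 28.5, 22.3, 27.8 and 29.01 CPM in the IgG-treated LDHA-KD tumours, against 70.4, 59.1, 56.8 and 41.7 CPM in the IgG-treated controls. Under anti-CTLA-4 the values were 29.99, 31.8, 63.9, 36.7 and 49.6 CPM in LDHA-KD tumours, against 79.1, 56.7, 73.3, 57.5 and 75.8 CPM in controls. The IgG groups lay apart and the anti-CTLA-4 groups overlapped through LDHA-KD replicate 3, at -1.07 (SE 0.19 and adjusted p = 2.51e-04) and -0.69 (SE 0.18 and adjusted p = 0.00478) log2 units in edgeR. Plod2 (chr9:92542223-92608428), a lysyl hydroxylase that sets the type of collagen cross-link, had 101, 99.97, 92.5, 124 and 105 CPM in the IgG-treated LDHA-KD tumours, against 271, 203, 182 and 187 CPM in the IgG-treated controls. In the anti-CTLA-4 arm Plod2 had 114, 119, 125, 129 and 116 CPM in LDHA-KD tumours, against 248, 189, 193, 262 and 229.98 CPM in controls. No libraries of the lines overlapped, and the values were -1.01 (SE 0.12 and adjusted p = 2.73e-06) and -0.90 (SE 0.11 and adjusted p = 5.97e-06). P4ha1, the other catalytic subunit listed, was lower at -0.70 (SE 0.16 and adjusted p = 0.0017) under IgG and -0.59 (SE 0.15 and adjusted p = 0.00362) under anti-CTLA-4.

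Lox and Loxl2, oxidases that cross-link collagen and elastin, and the lysyl hydroxylase Plod1 passed under IgG and not under anti-CTLA-4. The difference between the antibodies itself passed for none of the 3 (adjusted p = 1 each in edgeR). Lox stood at -1.17 (SE 0.27 and adjusted p = 0.00218) under IgG and -0.26 (SE 0.25 and adjusted p = 0.431) under anti-CTLA-4. Loxl2 stood at -1.17 (SE 0.22 and adjusted p = 5.13e-04) and -0.49 (SE 0.21 and adjusted p = 0.0692). Plod1 stood at -0.41 (SE 0.11 and adjusted p = 0.00877) and -0.16 (SE 0.11 and adjusted p = 0.246). In 4 of 9 other settings of the analysis Loxl2 did pass under anti-CTLA-4. Lox and Plod1 passed in 1 each, the fit without the 4 libraries apart on the second component. Without LDHA-KD anti-CTLA-4 replicate 3, Lox was -0.62 (adjusted p = 0.0191), Loxl2 -0.78 (adjusted p = 0.00121) and Plod1 -0.26 (adjusted p = 0.0383) under anti-CTLA-4 in edgeR's test. Fibroblasts make much of the collagen of a tumour, and the summed level of 10 fibroblast markers was 7991 CPM in that replicate, against 3394 to 5452 CPM in the other LDHA-KD libraries with anti-CTLA-4 and 3079 to 5918 CPM in controls with anti-CTLA-4. Under IgG the sum was 3516 to 4417 CPM in LDHA-KD tumours, against 3677 to 5726 CPM in control tumours, with 5 of the 10 markers lower and 1 higher, and under anti-CTLA-4 none was lower and 3 were higher. Their part in the collagen results was not tested.

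Of the 6 genes of chromatin and transcription, 4 were lower under IgG and 2 under anti-CTLA-4. Bhlhe40 (chr6:108660629-108666925), a repressor with a basic helix-loop-helix domain, had 191, 149.8, 199.8, 208 and 191 CPM in the IgG-treated LDHA-KD tumours, against 555, 435, 368 and 222 CPM in the IgG-treated controls. Tumours given anti-CTLA-4 held 182, 218, 334, 187 and 318 CPM with the knockdown, against 640.2, 341, 538, 429.9 and 437 CPM without it. The groups did not overlap under either antibody, at -1.07 (SE 0.23 and adjusted p = 0.00136) and -0.95 (SE 0.22 and adjusted p = 0.00215) log2 units in edgeR. Ankrd37, an ankyrin-repeat protein induced by HIF, was lower at -0.58 (SE 0.22 and adjusted p = 0.0457) under IgG and -0.60 (SE 0.21 and adjusted p = 0.0257) under anti-CTLA-4. Kdm3a, a histone demethylase, stood at -0.33 (SE 0.11 and adjusted p = 0.024) and -0.24 (SE 0.10 and adjusted p = 0.0766), and Mxi1, an antagonist of MYC, at -0.45 (SE 0.17 and adjusted p = 0.0414) and -0.32 (SE 0.16 and adjusted p = 0.108). Under anti-CTLA-4 and without control anti-CTLA-4 replicate 2, Kdm3a was -0.28 (adjusted p = 0.0411), Mxi1 -0.41 (adjusted p = 0.0431) and Jmjd6 -0.34 (adjusted p = 0.0233). Jmjd6, an oxygen-dependent hydroxylase, stood at -0.22 (95% interval -0.47 to 0.038, adjusted p = 0.173) and -0.27 (95% interval -0.51 to -0.032, adjusted p = 0.0615), and Rora, a nuclear receptor, at -0.26 (95% interval -0.64 to 0.11, adjusted p = 0.268) and 0.29 (95% interval -0.061 to 0.64, adjusted p = 0.169), and neither passed.

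Other genes of the pathway came from separate lists of regulators and targets. Of 14 further regulators 13 were tested, with 2 higher and 2 lower under IgG and 3 higher and 4 lower under anti-CTLA-4. Among all genes tested 16.8% were higher and 17.5% lower under IgG, and 20.2% and 19.8% under anti-CTLA-4, so the regulators were called about as often as all genes under IgG. Hif1a, the widely expressed alpha subunit, had 302, 272, 329.7, 366 and 311 CPM in the IgG-treated LDHA-KD tumours, against 351, 367, 352 and 302 CPM in the IgG-treated controls, at -0.12 (95% interval -0.30 to 0.063, adjusted p = 0.304) log2 units and 0.071 (95% interval -0.10 to 0.24, adjusted p = 0.504) under anti-CTLA-4 in edgeR. Vhl, the substrate adaptor of the ligase, stood at -0.084 (95% interval -0.33 to 0.16, adjusted p = 0.602) and -0.23 (95% interval -0.45 to 0.00084, adjusted p = 0.0974). Arnt2, a paralog of Arnt present at 0.536 to 2.31 CPM in all 19 libraries, was higher at 0.88 (SE 0.22 and adjusted p = 0.00479) under IgG and 1.22 (SE 0.21 and adjusted p = 1.50e-04) under anti-CTLA-4. Egln2, the third prolyl hydroxylase, was higher at 0.31 (SE 0.097 and adjusted p = 0.0193) and 0.28 (SE 0.091 and adjusted p = 0.0187). The ligase subunits Tceb1 and Cul2 were lower, Tceb1 at -0.55 (SE 0.16 and adjusted p = 0.0117) and -0.65 (SE 0.15 and adjusted p = 0.00214), and Cul2 at -0.22 (SE 0.079 and adjusted p = 0.0338) and -0.25 (SE 0.074 and adjusted p = 0.0109). Without control IgG replicate 1, Tceb1, Cul2 and Egln2 did not pass under IgG, with adjusted p-values of 0.0712, 0.0919 and 0.0977.

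Of 32 further hypoxia targets 31 were tested, and 10 were lower under IgG and 14 under anti-CTLA-4 in edgeR's test, while the others did not pass, where 17.5% and 19.8% of all genes were lower. Their median log2 fold change was -0.28 under IgG and -0.31 under anti-CTLA-4. At an unadjusted p under 0.05 the number in either direction was 13 of 31 under IgG, near the 43.8% of all genes. Under anti-CTLA-4 it was 17 of 31, against 48.9% of all genes. By the adjusted test 0 were higher under either antibody, where 16.8% and 20.2% of all genes were. Vegfa, the main angiogenic factor induced by HIF, had 136, 88.1, 119.8, 109 and 131 CPM in the IgG-treated LDHA-KD tumours, against 323, 289, 239.8 and 123 CPM in the IgG-treated controls, and was lower at -1.06 (SE 0.28 and adjusted p = 0.00638) and, under anti-CTLA-4, -1.03 (SE 0.27 and adjusted p = 0.00485). Pdgfb, a growth factor that recruits pericytes, was lower at -1.89 (SE 0.14 and adjusted p = 1.27e-08) and -1.89 (SE 0.14 and adjusted p = 7.92e-09). Igfbp3, a binding protein of insulin-like growth factors, was lower at -1.80 (SE 0.14 and adjusted p = 1.83e-08) and -1.52 (SE 0.13 and adjusted p = 6.84e-08). Ccng2, an atypical cyclin, was lower at -0.79 (SE 0.13 and adjusted p = 1.17e-04) and -0.83 (SE 0.12 and adjusted p = 3.93e-05).

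Levels of cell type markers differed between the lines along with the hypoxia genes. Under IgG the summed level of 10 macrophage markers was 4762 to 4974 CPM in LDHA-KD tumours, against 1695 to 2883 CPM in control tumours, with 9 of them higher. The sum of 10 T cell markers was 62.8 to 95.02 CPM, against 14.9 to 31.9 CPM, with all 10 higher. The 10 epithelial tumour markers summed to 3079 to 3429 CPM in LDHA-KD tumours, against 3779 to 4949 CPM in control tumours, with 4 lower and 1 higher. The 12 endothelial markers summed to 369 to 434 CPM, against 461 to 621 CPM, with 9 lower and 1 higher. Under anti-CTLA-4 the epithelial sum was 2179 to 3373 CPM in LDHA-KD tumours, against 3831 to 4762 CPM in control tumours, and the endothelial sum was 389 to 562 CPM, against 510 to 566 CPM. None of these markers was at 0 in all libraries. The part of cell makeup in the lower hypoxia genes was not tested.

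Within a group the hypoxia genes tended to be high or low in the same library, most of all in control tumours. In the IgG control tumours replicate 1 was the highest of its group in 27 of the 35 genes and replicate 5 the lowest in 29, where these libraries held that place in 32.1% and 23.3% of all genes tested. In the anti-CTLA-4 control tumours replicate 1 was the highest in 26 and replicate 2 the lowest in 26, against 18.6% and 22.3% of all genes. In LDHA-KD tumours with anti-CTLA-4, replicate 3 was the highest in 22 and replicate 1 the lowest in 20, and with IgG, replicate 2 was the lowest in 21, against 26.0%, 26.8% and 19.2% of all genes. The median coefficient of variation over the 35 genes was 17.4% for anti-CTLA-4 and 10.8% for IgG tumours of the LDHA-KD line, and 17.3% for anti-CTLA-4 and 21.2% for IgG tumours of the control line. Adm varied most in the control IgG group, at 48.0%, and Arnt least, at 3.43%. In LDHA-KD tumours with anti-CTLA-4 the widest spread was that of Lox, at 56.7%. Replicates carry no order beyond these names, and the extent of poorly perfused tissue in a sample was not measured.

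**Figure D3:**
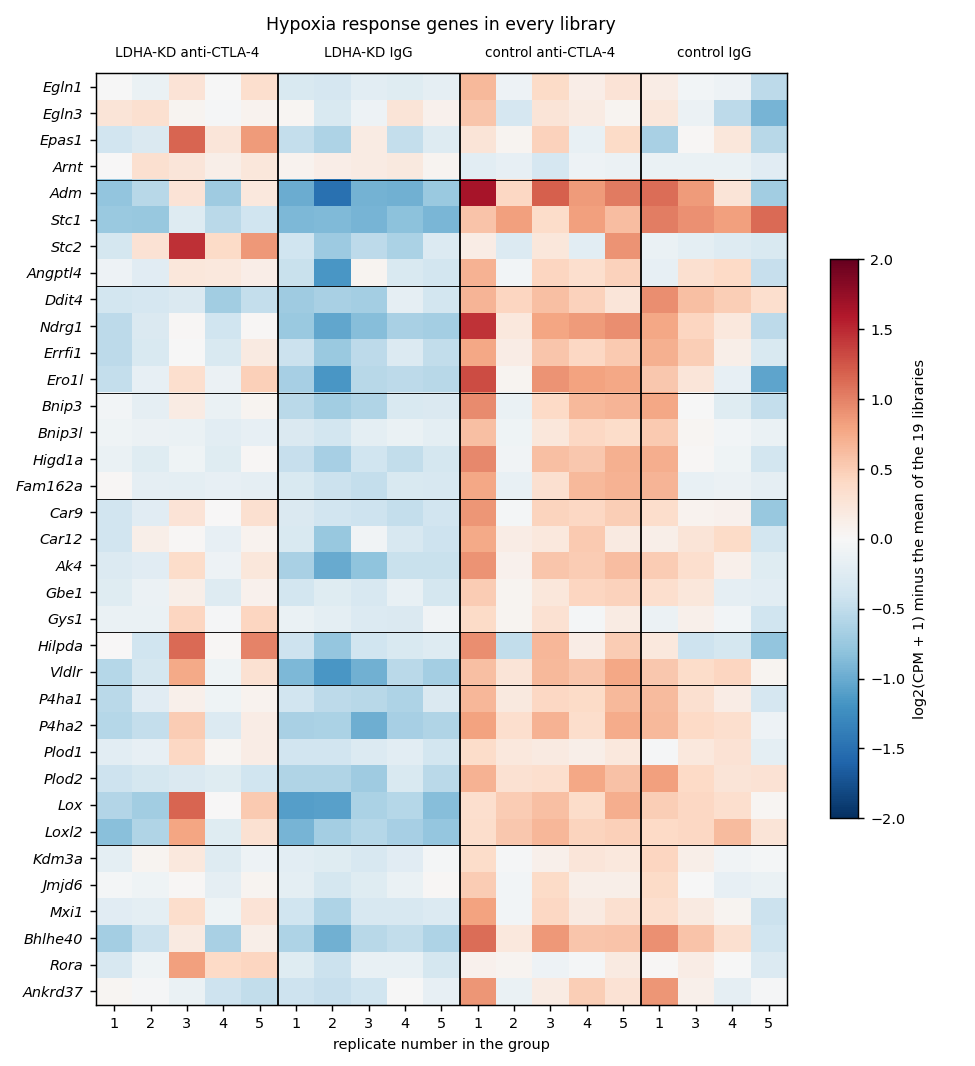
Log2(CPM + 1) of the 35 genes, rows grouped by role, in each of the 19 libraries, centred on the mean of each gene over all libraries; the colour scale runs in log2 units. Control IgG replicate 1 is high and replicate 5 low across most rows, and LDHA-KD anti-CTLA-4 replicates 3 and 5 are high for Epas1, Stc2, Lox and Loxl2.

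Levels per length, in CPM per kilobase of exon averaged over all libraries, spanned a wide range. Ndrg1 was the highest at 196 CPM per kilobase, followed by Fam162a at 180.2, Errfi1 at 122 and Egln3 at 101. Vldlr was the lowest at 0.581 CPM per kilobase, after Rora at 0.986 and Stc2 at 1.05. The low genes still had counts far above the floor of 3 counts, which corresponded to at most 0.0926 CPM in any library. Genes with both high and low levels were thus among those that were lower.

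Anti-CTLA-4 was then compared with IgG within each line, which asks how the blockade itself moved the hypoxia genes. In LDHA-KD tumours 0 of the 35 genes passed edgeR's test, where 0% of all genes did, although all 35 values were above 0 with a median of 0.39 log2 units, against -0.0049 over all genes. At an unadjusted p under 0.05 there were 21 of the 35 genes, against 11.9% of all genes. DESeq2, with the same samples, called 4 of the 35 genes higher, where it called 0.263% of all genes: Stc2 at 1.38 (adjusted p = 0.0164), Vldlr at 1.17 (adjusted p = 0.0103), Lox at 1.10 (adjusted p = 0.0235) and Ak4 at 0.70 (adjusted p = 0.0429). With limma voom 0 of the 35 passed. In 10 of the 35 genes no anti-CTLA-4 library overlapped an IgG library, where this was so in 1.38% of all genes. These were Egln1, Stc1, Ndrg1, Ero1l, Bnip3, Higd1a, Fam162a, Ak4, P4ha2 and Mxi1. Because LDHA-KD tumours with IgG also serve in the comparison with control tumours, these values are not independent of those above.

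Replicates 3 and 5 of the LDHA-KD anti-CTLA-4 tumours bore on the size of these differences. Stc2 had 3.604, 6.18, 15.3, 6.64 and 9.74 CPM with anti-CTLA-4, against 3.47, 2.56, 3.12, 2.81 and 3.86 CPM with IgG. Lox had 81.3, 74.96, 275, 122 and 176 CPM with anti-CTLA-4, against 56.5, 56.9, 77.9, 81.98 and 67.04 CPM with IgG. Replicates 3 and 5 were the highest for both genes, as they were for Epas1, Hilpda, Vldlr, Loxl2 and P4ha2. The same replicates were the highest for Egln1, Adm, Stc1, Ndrg1, Higd1a, Ak4 and Bhlhe40, but not for Egln3, Arnt, Ddit4 or Plod2. Without the 4 libraries apart on the second component the median of the 35 genes was 0.22, with all 35 values still above 0. In replicates 3 and 5 the fibroblast marker sum was 7991 and 5452 CPM, and their epithelial marker sums were the lowest of the group at 2179 and 2343 CPM. All 10 neutrophil markers were above 0 in the same comparison, at 467 to 1433 CPM in sum with anti-CTLA-4, against 259.99 to 707 CPM with IgG, and so were all 10 T cell markers, with medians of 0.85 and 0.47 log2 units and none past the adjusted test. The fibroblast markers were above 0 in 9 of 10 and the endothelial in 11 of 12, with medians of 0.38 and 0.23. The adipocyte markers were above 0 in 8 of 8 and the erythroid in 6 of 6, with medians of 0.23 and 0.59. The epithelial markers were above 0 in 5 of 10 and the keratinocyte in 3 of 4. The macrophage markers were above 0 in 2 of 10 and the skeletal muscle markers in 0 of 8. The part of cell makeup in the differences was not tested.

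In control tumours 0 of the 35 genes passed, where 0% of all genes did, and 32 values were above 0 with a median of 0.27. At an unadjusted p under 0.05 there were 12 genes, against 8.03% of all genes, and DESeq2 and limma voom called 0 of the 35. The genes without overlap between the antibodies were 0, where 1.27% of all genes had none. Ero1l had the largest value, 0.82 (SE 0.27 and adjusted p = 0.601), followed by Hilpda at 0.73 (SE 0.31 and adjusted p = 0.601). Without control IgG replicate 5, the library in which most hypoxia genes were lowest, the median was 0.15. Marker sets of some other cell types lay higher with anti-CTLA-4 in the same comparison, and others did not. No marker passed the adjusted test. All 8 adipocyte markers were above 0 with a median of 1.61 log2 units, and their summed level was 99.9 to 838 CPM with anti-CTLA-4, against 87.6 to 196 CPM with IgG. All 10 neutrophil markers were above 0 with a median of 0.98, at 459 to 1273 CPM, against 287 to 464 CPM. The T cell markers were above 0 in 9 of 10 and the erythroid markers in 6 of 6, with medians of 0.97 and 0.57. The fibroblast and epithelial markers were each above 0 in 2 of 10, the macrophage markers in 3 of 10. The skeletal muscle markers were above 0 in 1 of 8, the keratinocyte in 1 of 4 and the endothelial in 6 of 12. Medians of the fibroblast and skeletal muscle markers were -0.17 and -0.33. The part of these cell types in the values of the hypoxia genes was not tested. Stc1 ran the other way in this line, at -0.33 (SE 0.11 and adjusted p = 0.601) log2 units.

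The interaction subtracts the treatment difference of the control line from that of the LDHA-KD line, and it passed for 0 of the 35 genes, where 0% of all genes passed. At an unadjusted p under 0.05 there were 5 genes, against 2.48% of all genes, namely Stc1, Vldlr, Lox, Loxl2 and Rora. Stc1 had the lowest unadjusted p, 1.15e-04, at 0.71 (SE 0.15 and adjusted p = 1) log2 units in edgeR, with all 5 LDHA-KD libraries higher with anti-CTLA-4 than any with IgG. Its control libraries averaged 51.4 ± 6.67 CPM with anti-CTLA-4 (SD, n = 5) and 64.9 ± 6.41 CPM with IgG (SD, n = 4). The median interaction of the 35 genes was 0.12, and it was 0.26 without control IgG replicate 5, -0.029 without control IgG replicate 1 and -0.067 without the 4 libraries apart on the second component.

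**Figure D4:**
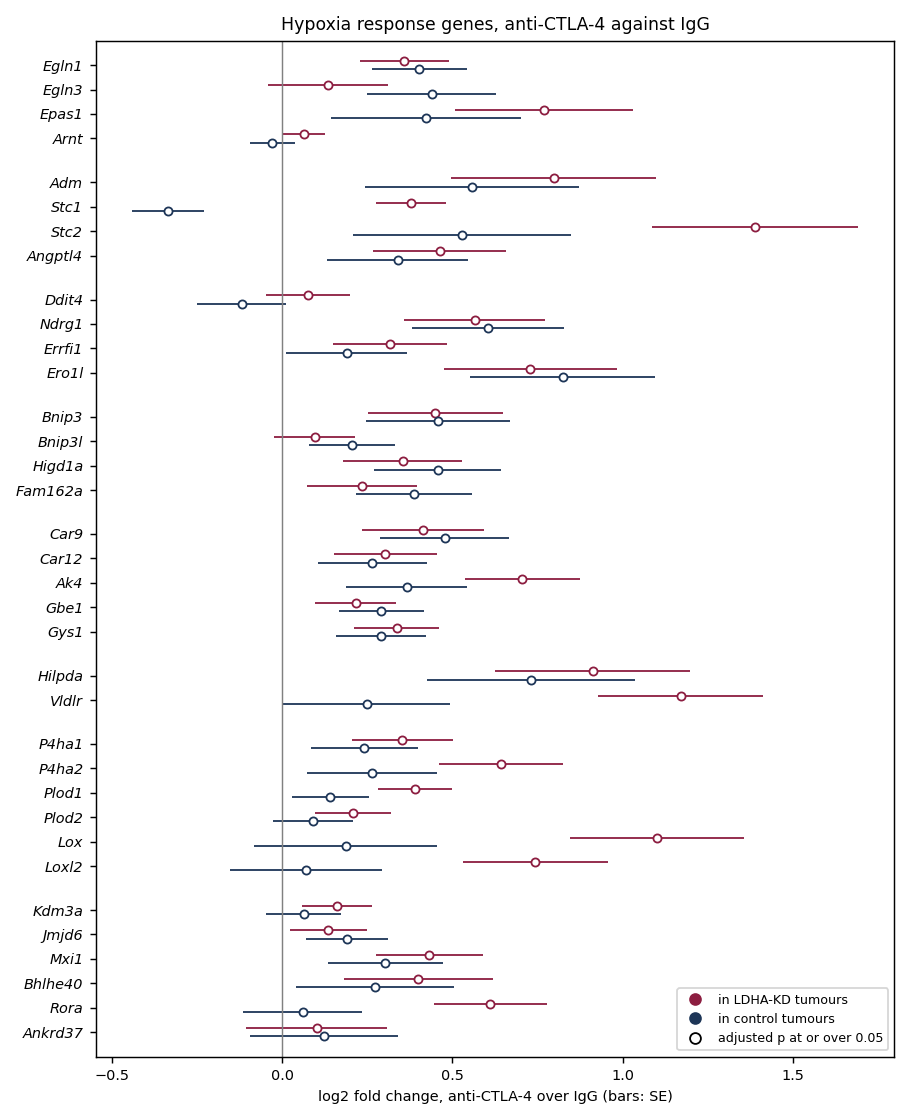
Log2 fold changes of the 35 genes, anti-CTLA-4 against IgG, in LDHA-KD and in control tumours, with bars of 1 SE, grouped by role; open points did not pass an adjusted p of 0.05. All 35 values in LDHA-KD tumours lie above 0, with Stc2 the highest at 1.39, and none is filled.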

How the data were processed

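The authors deposited whole-number read counts for each gene and sample, without normalization, made with HTSeq 0.5.3 on build mm10, per the submitters' processing notes, which also name Picard 1.124. The aligner, annotation release and strand setting are not given in the sources used here, so reads of overlapping or antisense genes may be shared. Per the labels, 500 ng of RNA went through poly(A) selection and a stranded kit with 8 PCR cycles. The 5 summary lines that name no gene were left out, and held 26.2% to 28.7% of all records.

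The analysis used edgeR 4.0.16 in R 4.3.3, with filterByExpr, TMM factors and 1 model of all 19 samples with a coefficient per group. Contrasts were tested with the quasi-likelihood F test and adjusted by Benjamini-Hochberg over 16763 genes. SE is the log2 fold change divided by the square root of F, and intervals use 15 degrees of freedom. The intervals are not adjusted for the number of genes and do not use the degrees of freedom of the F test. A gene can therefore miss the adjusted threshold although its interval lies to 1 side of no change. In simulated counts with 200 of 16590 genes changed 2-fold, the fit recovered 179 and called 9 others. Far fewer genes were changed there than were called between the lines here, so that run does not cover such broad differences. Alternatives were DESeq2 1.42.0, limma 3.58.1 (voom), other scalings and filters, a replicate block and leaving out each library. The lowest chi-square per gene among 171 pairs of libraries was 5.40, so no library was a copy of another. Coordinates are those of GENCODE on GRCm38, matched by identifier for 46488 genes, and promoters come from RefSeq.

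No measured value enters the rule for the 35 genes, but they, the role groups and the lists of other pathway genes and markers were chosen with earlier results of these data known. Values in every sample are given for the oxygen sensing genes, for genes called in both comparisons of the lines with a log2 fold change of at least 1 in size in either, and for the gene with the smallest p in each remaining role group. Stc2 and Lox were added after their values were seen. Of the other pathway genes, the 4 with the smallest p per list and Vegfa, Hif1a and Vhl are named, except 1 target that is not reported here. The floor of 3 counts reflects counting error alone, since no molecular identifiers separate PCR copies.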

Additional observations from a re-analysis of the deposited data

Results flagged for a closer look

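In 5 of the 140 combinations of a hypoxia gene and a group, 1 library stood far from the others of its group by Dixon's criterion, where chance alone flags about 7. Fam162a was 149.6 CPM in LDHA-KD anti-CTLA-4 replicate 1, the highest of its group, where the nearest library had 132 CPM. Fam162a was 236 CPM in control IgG replicate 1, where the nearest had 136 CPM. Ero1l was 150.8 CPM in LDHA-KD IgG replicate 2, the lowest of its group, where the nearest had 214 CPM. P4ha2 was 22.3 CPM in LDHA-KD IgG replicate 3, where the nearest had 27.8 CPM. Arnt was 85.1 CPM in control IgG replicate 5, where the nearest had 91.1 CPM.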

How the results depend on the processing

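Of 23 lower calls under IgG, 14 were kept in every one of 9 settings and 19 fits without 1 library, and of 18 under anti-CTLA-4, 13 were. The number lower without 1 library ran from 15 to 26 under IgG and from 14 to 24 under anti-CTLA-4. In those fits 14.2% to 18.4% and 17% to 21.7% of all genes were lower. The number higher under anti-CTLA-4 ran from 1 to 3. With DESeq2, anti-CTLA-4 tumours of the LDHA-KD line had 4 genes higher than IgG tumours, against 0 with edgeR, and the cause was not tested. Without the 4 libraries apart on the second component, chosen after seeing the data, 19 genes were lower under IgG and 20 under anti-CTLA-4. In that fit 18.6% and 13% of all genes were lower.

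The labels do not say that replicate numbers mark shared batches. Over 27 pairs with the same number r ran from -0.21 to 0.39 with a median of 0.12 and exceeded 0.1 in 15, against a median of -0.042 for other pairs, and 5 of 19 samples matched best with their own number. Because no label ties the numbers, they were not taken as pairs, and whether a number marks a batch cannot be told from these values. The libraries apart on the second component were replicates 3 and 5 of both anti-CTLA-4 groups. With the replicate block 18 genes were lower under IgG and 21 under anti-CTLA-4, where 17.9% and 21.3% of all genes were lower. Bnip3, Bnip3l, Gbe1, Mxi1 and Ankrd37 did not pass under IgG in that fit.

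On single genes, 3518 of 3691 alternative values kept direction and side of the threshold, 107 lost the call, 44 gained one and 22, none past the threshold, turned sign, with cause not tested. They cover 132 results in up to 28 settings, with Ldha and named other pathway genes among them. Most settings left out 1 library, often 1 outside the comparison. Treatment and interaction results entered at an unadjusted p under 0.05, with no edgeR call to lose. The share kept is therefore no measure of how firm the calls are. Under IgG, without 1 library, Epas1 ran from -0.27 to 0.059, Hilpda from -0.27 to 0.097 and Vhl from -0.15 to 0.039, and Hilpda was 0.049 with the block. Under anti-CTLA-4, without 1 library, Egln3 ran from -0.13 to 0.090, Epas1 from -0.023 to 0.38, Gys1 from -0.13 to 0.020 and Hilpda from -0.18 to 0.21. Without scaling Egln3 was 0.077 and Gys1 0.060, and with the block Egln3 was 0.0048. Without the 4 libraries Egln3 was 0.022, Epas1 -0.18, Hilpda -0.42, Rora -0.00033 and Hif1a -0.018. All 35 genes lay far above the floor of 3 counts.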
